A study of Homo sapiens with 6 samples.

Results

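The 10 genes described here encode secreted proteins of one signalling system and were measured in NCRM-1, a human induced pluripotent stem cell (iPSC) line grown as aggregates in vertical wheel bioreactors. They are the activin and inhibin subunits INHA, INHBA, INHBB and INHBE, the related ligand GDF11, and proteins of the extracellular antagonist families, which are WFIKKN1, WFIKKN2, FST, FSTL1 and FSTL3. The genes were taken by symbol, through GENCODE 44, from the 19977 genes listed for each library, and all 10 were found. The group was drawn up around WFIKKN2 because its counts were 0 in one medium, so the difference of WFIKKN2 is given as a description with no test, and the group as a whole is not an independent sample of genes. Bulk polyadenylated RNA was sequenced after 4 days of culture. The treated group, PEG and HS, comprised 3 samples grown in E8 with 10 mg/ml polyethylene glycol (PEG) and 0.1 µg/ml heparin sodium salt (HS), and the E8 control group comprised 3 samples grown in E8. Both groups were labelled wild type, were seeded as single cells and had 50% of the medium replaced on day 2. The treatment text of the labels names PEG and heparin for all 6 libraries, and each library was grouped here by its own treatment label. The labels name 1 bioreactor letter for each medium, so effects of the vessel and of the medium cannot be told apart. The SDs and p-values below may describe only the spread within a single vessel of a single line.

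Activins are dimers of inhibin beta subunits. They bind type II and type I receptors on the cell surface and lead to phosphorylation of SMAD2 and SMAD3, the same branch that TGF-beta and NODAL use and that supports the undifferentiated state of human pluripotent cells. E8 supplies this branch with TGF-beta. Inhibins pair the alpha subunit with a beta subunit and oppose activin at its receptors. Follistatins hold activins outside the cell, and the WFIKKN proteins, which join whey acidic protein, follistatin, immunoglobulin, Kunitz and netrin domains in one chain, bind GDF8 and GDF11.

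Reads counted on genes totalled 26991279 to 36185138 per library. Values below are CPM, counts relative to library size after scaling by edgeR's TMM factors (0.994 to 1.01), and differences are log2 fold changes of PEG and HS over E8 control from the quasi-likelihood test of edgeR, adjusted by Benjamini-Hochberg over the 16505 genes that had at least 10 counts over the 6 libraries. All 10 members passed this filter. Between replicates of a medium, the chi-square of the counts was 2.58 to 3.52 per degree of freedom, more than sampling noise gives, and no library was a copy of another. The pluripotent identity of the cells was checked on 10 markers, all of them detected in each library, with a summed level of 9464 to 9663 CPM with PEG and HS against 9809 to 9955 CPM in E8 control. Of these markers, 4 were called higher and 4 lower, beside 25.3% of all genes tested called. The largest differences were those of NANOG (log2 fold change 0.55) and SOX2 (-0.59), so the near-equal sums do not mean that each marker was unchanged.

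WFIKKN2 (ENSG00000173714, chromosome 17, 50834650 to 50842353 of GRCh38, plus strand) had 52, 50 and 49 counts in E8 control replicates 1, 2 and 3 and 0 counts in each of the 3 PEG and HS replicates. In CPM these E8 control values were 1.93, 1.54 and 1.36, or 1.61 ± 0.291 (SD, n = 3). The E8 control libraries hold 151 counts of the gene in all, and the PEG and HS libraries none in 95532011 counted reads. Counting error alone allows up to 3 counts in the PEG and HS group as a whole, and at that floor WFIKKN2 would be 50.5-fold lower than in E8 control. This fold is a description from the values for which the gene was chosen. It leaves out the spread between replicates and the error of the E8 control level. In bulk RNA, fewer cells with the transcript and less of it per cell cannot be told apart.

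The 250 bases before the RefSeq start of WFIKKN2 (chr17:50834334-50834583, GRCh38.p14, plus strand) and of FST (chr5:53480379-53480628, plus strand), the follistatin gene with the largest difference after it, are printed here 5′ to 3′ because these are the most strongly lowered antagonists of the group. Capitals mark the letters CAGAC, the SMAD box, on either strand.
WFIKKN2: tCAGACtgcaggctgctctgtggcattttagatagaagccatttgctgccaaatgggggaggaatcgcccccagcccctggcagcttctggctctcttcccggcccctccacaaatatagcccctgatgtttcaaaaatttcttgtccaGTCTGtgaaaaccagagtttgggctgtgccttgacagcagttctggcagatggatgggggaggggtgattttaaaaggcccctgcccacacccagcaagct
FST: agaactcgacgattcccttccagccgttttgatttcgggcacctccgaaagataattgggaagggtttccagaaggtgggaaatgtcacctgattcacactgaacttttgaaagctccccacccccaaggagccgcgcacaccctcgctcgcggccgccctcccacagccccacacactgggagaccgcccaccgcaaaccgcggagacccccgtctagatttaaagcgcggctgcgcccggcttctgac
In WFIKKN2 the letters occur 2 times, once on the plus strand and once on the minus strand, and in FST they do not occur in this window. Of 35116 promoter windows of the same length in RefSeq, 38.0% hold them at least once, so the matches describe the sequence only. Neither window holds the TATA motif TATAAA, the octamer ATGCAAAT or the FOXH1 motif AATCCACA, which are found in 10.7%, 1.63% and 0.709% of windows. The letters CCGCCC, read by the SP family, occur 2 times in FST and 0 times in WFIKKN2, and in 42.6% of windows. GENCODE gives WFIKKN2 2 transcripts with different starts, and the counts do not show which start was used. The printed window ends at 50834583, whereas exon 1 of the canonical GENCODE transcript starts at 50835586, so the window does not adjoin that start.

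Only 6 genes of the 19977 had 0 counts in each library of one medium and at least 10 counts in each library of the other, 3 of them at 0 in PEG and HS and 3 at 0 in E8 control. The other 5, F8A2, F8A3, NXF2, UTP14C and ENSG00000255872, share 82.6% to 100% of their 31-base words with transcripts of other genes. Reads of these 5 can therefore be counted on another gene. WFIKKN2 shares 0% with the transcripts of any other gene when words are read in the direction of transcription. Reverse complements were not searched. On the opposite strand the long noncoding gene ENSG00000261976, which has no row in the count files, covers 457 of the 3800 exonic bases of WFIKKN2 (12.0%). The overlap lies in exon 2 of the canonical transcript, the last exon, and 302 of its bases are coding. The library kit keeps strand, but whether the counting used it is not given in the sources used here. These 6 genes were picked out after their values were seen.

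**Figure D1:**
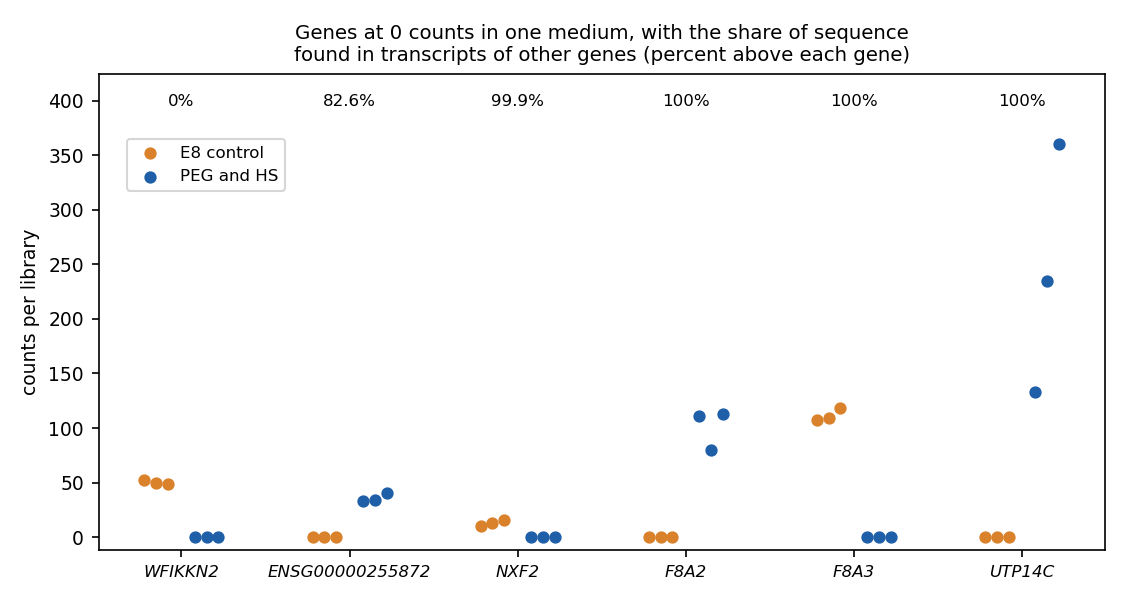
Raw counts in each of the 6 libraries (y axis, linear) for the 6 genes with 0 counts in one whole medium, orange for E8 control and blue for PEG and HS. The percentage above each gene is the share of its 31-base words found in transcripts of other genes, 0% for WFIKKN2 and 82.6% to 100% for the other 5. Words were read in the direction of transcription, and reverse complements were not searched.

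The genes that flank WFIKKN2 on chromosome 17 and passed the filter were counted in each library. LUC7L3, an RNA-binding splicing factor gene that ends 78431 bases before it, was at 197 ± 8.35 CPM with PEG and HS against 184 ± 2.96 CPM in E8 control, which gave a log2 fold change of 0.10 (SE 0.032, edgeR adjusted p = 0.0392). TOB1, an antiproliferative gene 19870 bases after it, was at 18.8 ± 0.849 and 25.6 ± 0.811 CPM, a log2 fold change of -0.45 (SE 0.054, edgeR adjusted p = 1.81e-05). ANKRD40CL, the other listed gene within 100 kb, had too few counts to be tested.

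WFIKKN1 (ENSG00000127578, chromosome 16, 629239 to 634117), the paralogue that binds the same ligands, was present in both media. Its levels were 7.44, 7.40 and 7.59 CPM with PEG and HS against 10.7, 10.1 and 9.20 CPM in E8 control. The media did not overlap, and the log2 fold change was -0.41 (SE 0.078, edgeR adjusted p = 0.00118). In E8 control WFIKKN1 stood 4.31, 5.09 and 5.28 times as high as WFIKKN2 per kilobase of exon in the 3 libraries. WFIKKN1 was the more abundant paralogue in E8 control and the only one of the pair with counts with PEG and HS.

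FST (ENSG00000134363, chromosome 5, 53480626 to 53487134), which encodes follistatin, fell more than FSTL1 and FSTL3. It had 16.0, 17.3 and 15.5 CPM with PEG and HS against 41.0, 44.1 and 41.7 CPM in E8 control. The treated and control libraries lie far apart in the plot of CPM by member. The E8 control level was 2.61-fold that of PEG and HS (log2 fold change -1.38, SE 0.054, edgeR adjusted p = 4.81e-11). Over all genes tested, 1.78% were called and at least as low as 2-fold down. Tested against a 1.5-fold change, FST was the one member called of the 9 other than WFIKKN2.

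FSTL3 and FSTL1 changed less. FSTL3 (ENSG00000070404, chromosome 19, 676392 to 683392), a follistatin-like activin and GDF binder, was at 6.97, 7.96 and 7.27 CPM with PEG and HS against 8.41, 8.83 and 8.65 CPM in E8 control. The groups did not overlap, but the difference was at the edge of the threshold (log2 fold change -0.23, SE 0.079, edgeR adjusted p = 0.0489). The adjusted p of FSTL3 rose to 0.178 without PEG and HS replicate 1, 0.114 without PEG and HS replicate 3, and 0.0655, 0.127 and 0.102 without E8 control replicates 1, 2 and 3. FSTL1 (ENSG00000163430, chromosome 3, 120392293 to 120451016), a more distant relative of follistatin that is secreted by many mesenchymal and stem cells, was at 408, 411 and 414 CPM with PEG and HS against 490, 511 and 512 CPM in E8 control. It fell by 0.29 on the log2 scale (SE 0.026, edgeR adjusted p = 6.37e-07), and its replicates varied by 0.802% of their mean with PEG and HS against 2.45% in E8 control. The pseudogene BTNL12P on the opposite strand, which has no row in the count files, covers 316 of the 9409 exonic bases of FSTL1. Relative to FSTL3, FST per kilobase was 2.52, 2.40 and 2.35 times as high in PEG and HS and 5.37, 5.50 and 5.32 times as high in E8 control, a within-library ratio that no scaling factor touches.

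**Figure D2:**
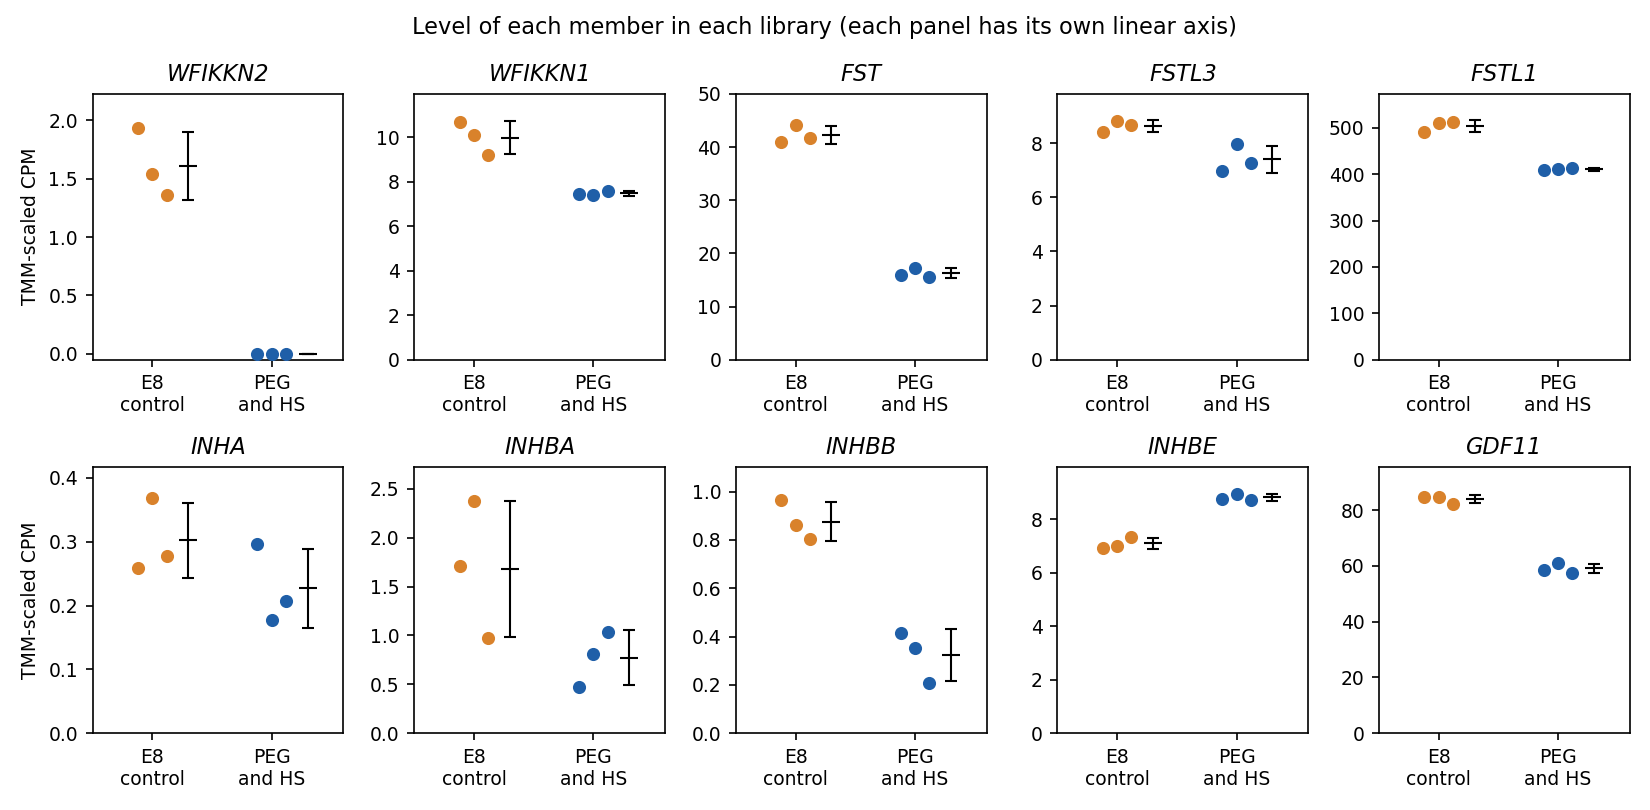
TMM-scaled CPM (y axis, linear, one scale for each panel) of the 10 members in E8 control (orange) and PEG and HS (blue). Each point is 1 library, and the black bar beside it is the mean ± SD of 3 libraries. WFIKKN2 is at 0 in all blue points, FST and INHBB drop without overlap, INHBE is the panel in which blue lies above orange, and INHBA and INHA overlap.

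Among the ligand subunits, the 2 classical activin beta chains were rare in both media. INHBB (ENSG00000163083, chromosome 2, 120346136 to 120351803), the beta B subunit, had 14, 10 and 7 counts with PEG and HS against 26, 28 and 29 counts in E8 control, or 0.325 ± 0.107 and 0.876 ± 0.0810 CPM (SD, n = 3). It was lower in each PEG and HS library than in each E8 control library, with an E8 control level 2.67-fold higher (log2 fold change -1.42, SE 0.34, edgeR adjusted p = 0.00657). With so few counts the 95% interval of the log2 fold change ran from -2.15 to -0.69.

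INHBA (ENSG00000122641, chromosome 7, 41667168 to 41705834), the beta A subunit that forms activin A, had 16, 23 and 35 counts with PEG and HS against 46, 77 and 35 counts in E8 control. The third E8 control library had 0.970 CPM and lay below the third PEG and HS library, at 1.03 CPM, so the media overlapped. The fit called it lower (log2 fold change -1.11, SE 0.34, edgeR adjusted p = 0.0247). The call was lost without PEG and HS replicate 1 (adjusted p = 0.119) or 2 (0.0538), and without E8 control replicate 1 (0.0629) or 2 (0.160), all from edgeR. INHBA was also the member that varied most between replicates, by 36.4% of the mean in PEG and HS and 41.6% in E8 control. INHBA-AS1 on the opposite strand, which also has no row in the count files, covers 248 of the 8284 exonic bases of INHBA.

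INHA (ENSG00000123999, chromosome 2, 219569162 to 219575711), the inhibin alpha chain, had 10, 5 and 7 counts with PEG and HS against 7, 12 and 10 in E8 control. The groups overlapped and no difference was detectable at this depth, with an interval of the log2 fold change from -1.37 to 0.57 (edgeR adjusted p = 0.574) that includes a 2-fold decrease. INHBE (ENSG00000139269, chromosome 12, 57452323 to 57459280), the beta E subunit best known from liver, was the member that rose. It had 8.78, 8.95 and 8.72 CPM with PEG and HS against 6.93, 7.02 and 7.34 CPM in E8 control without overlap, which gave a log2 fold change of 0.31 (SE 0.075, edgeR adjusted p = 0.00656). On the opposite strand the long noncoding gene ENSG00000287200, which has no row in the count files, covers 499 of the 3046 exonic bases of INHBE. Whether its reads bear on the INHBE counts is not known, as the use of strand in counting is not given. Per kilobase, INHBE stood 14.1 to 15.4 times as high as the sum of INHBA and INHBB in the PEG and HS libraries and 4.15 to 6.56 times as high in the E8 control libraries. INHBC, the beta C gene that ends just upstream of INHBE, had 5, 12 and 16 counts with PEG and HS against 5, 8 and 4 in E8 control and was not called (log2 fold change 0.94, 95% interval -0.22 to 2.09).

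GDF11 (ENSG00000135414, chromosome 12, 55743122 to 55757264), a ligand held by both WFIKKN proteins and by follistatins, was the most abundant ligand of the group. It was at 58.7, 60.9 and 57.6 CPM with PEG and HS against 84.6, 84.9 and 82.3 CPM in E8 control. The replicates were tight and the media well apart, with a log2 fold change of -0.51 (SE 0.034, edgeR adjusted p = 2.47e-08). SARNP on the opposite strand, with 1969 to 2709 counts per library, covers 378 of the 8801 exonic bases of GDF11. As with INHBE, whether reads of SARNP bear on the GDF11 counts is not known. MSTN, which encodes GDF8, the other ligand of the WFIKKN proteins, had 1 count over the 6 libraries, too few to be tested.

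**Figure D3:**
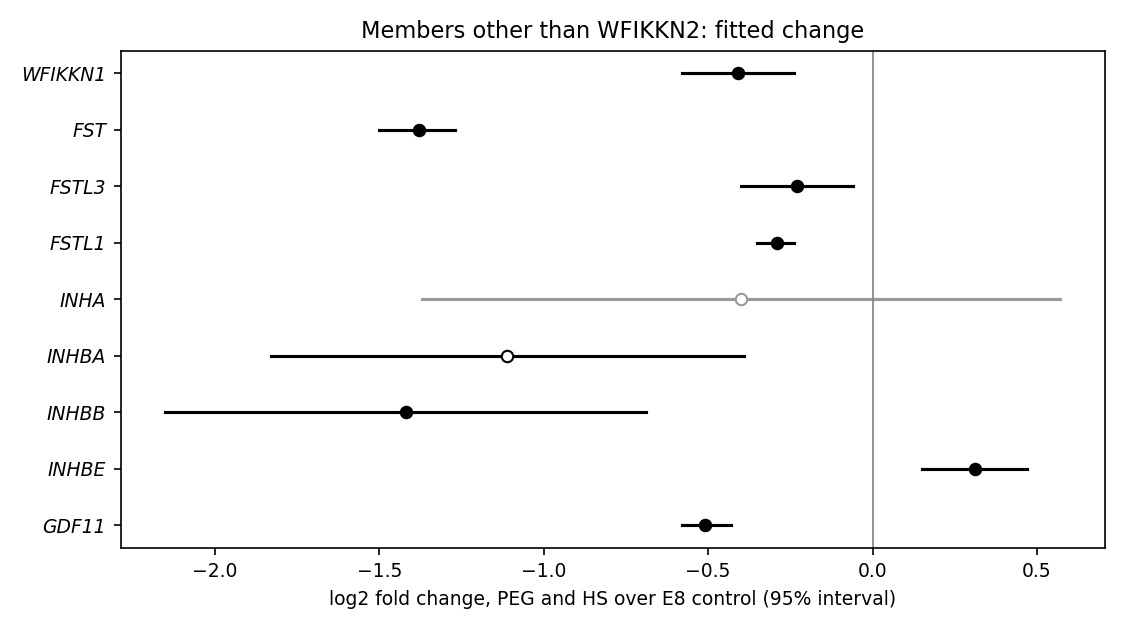
Log2 fold change of PEG and HS over E8 control (x axis) with its 95% interval for the 9 members other than WFIKKN2, from edgeR. Filled circles mark genes whose 3 treated and 3 control libraries did not overlap, open circles those that did, and grey marks INHA, which was not called. The intervals of INHA, INHBA and INHBB are the widest, FST lies at -1.38 with a narrow interval, and INHBE is right of 0.

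Of the 9 members other than WFIKKN2, 7 were called lower and 1 higher, beside 25.3% of all genes tested (13.1% lower, 12.2% higher). Their median log2 fold change was -0.41, against 0.0031 over all genes tested. In 7 of the 9 the CPM ranges of the media did not overlap, as in 39.3% of all genes tested. Because the group was chosen on this contrast, nothing is read from these counts.

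Ordered by CPM per kilobase of exon, which corrects for gene length, FSTL1 led in both media with 53.6 ± 1.31 in E8 control and 43.7 ± 0.350 in PEG and HS. In E8 control it was followed by FST (15.4 ± 0.592), GDF11 (9.54 ± 0.160), FSTL3 (2.85), INHBE (2.33), WFIKKN1 (2.05) and WFIKKN2 (0.423). Each of these stood above the next without overlap between libraries. INHBB (0.273), INHBA (0.203) and INHA (0.185) came last, and neighbours among these overlapped. In PEG and HS the order changed at 3 places beside the rare subunits, which again overlapped. GDF11 (6.71 ± 0.193) stood above FST (5.91 ± 0.347), INHBE (2.89) above FSTL3 (2.44), and WFIKKN2 dropped below the 3 rare subunits to the bottom. FST and FSTL3 summed to 18.2 ± 0.658 CPM per kilobase in E8 control and 8.35 ± 0.499 in PEG and HS, and INHBA and INHBB summed to 0.476 ± 0.0971 and 0.195 ± 0.0119. The ratio of the first sum to the second was 34.9, 34.1 and 49.0 in E8 control and 43.3, 42.8 and 42.4 in PEG and HS, where the groups overlapped. With PEG and HS, INHBA had 16, 23 and 35 counts and INHBB 14, 10 and 7, which moved in opposite directions between replicates. In that medium the SD of their sum and the spread of the ratio are thus smaller than counting error would give.

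**Figure D4:**
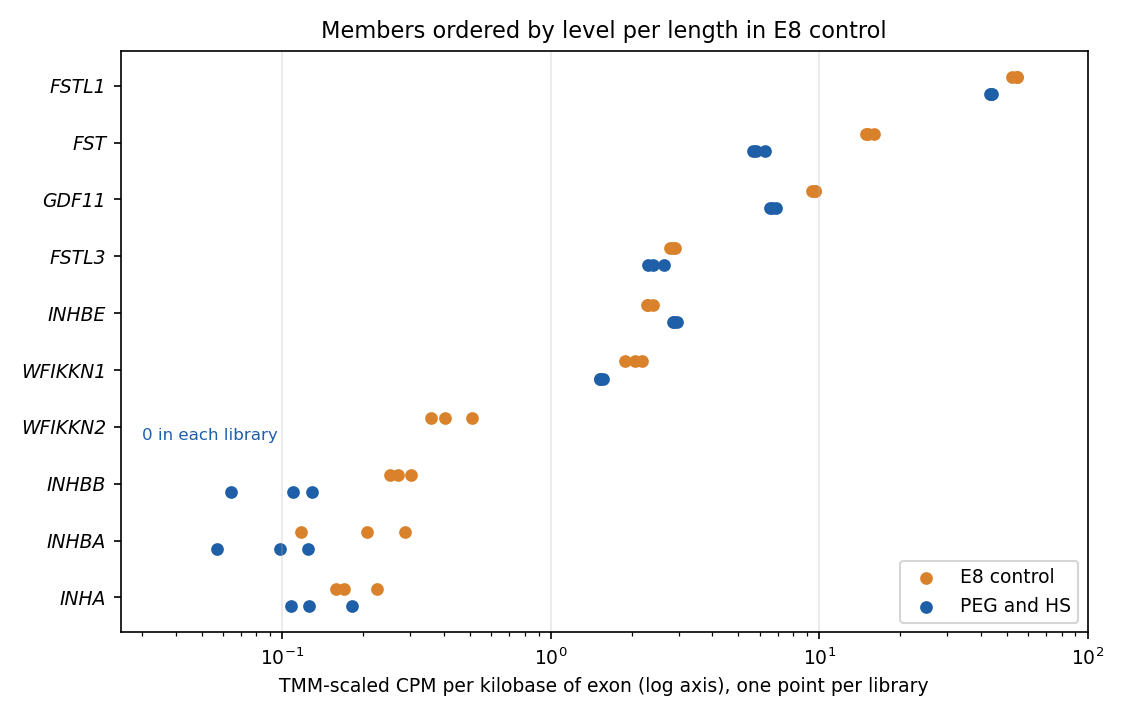
TMM-scaled CPM per kilobase of exon (x axis, log scale), 1 point per library, for the 10 members ordered by their mean in E8 control. Orange is E8 control and blue PEG and HS. FSTL1 stands highest in both media, the blue points of FST lie just left of those of GDF11, and WFIKKN2 has no blue point because all 3 libraries are at 0.

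The 5 genes whose log2 CPM over the 6 libraries was most like that of WFIKKN2 were RET, PAPLN, F8A3, WTIP and EGR1, with Pearson's r of 0.9992 to 0.9998. They encode a receptor tyrosine kinase, an extracellular matrix glycoprotein, a copy of the F8A gene, a LIM protein and an immediate early transcription factor. F8A3 is among the genes above whose reads can be counted on another gene, so its likeness to WFIKKN2 is uncertain. These r are descriptions over 6 libraries that fall into 2 media, so every gene with tight replicates and a lower level in PEG and HS scores high, and 928 of 16504 genes had an r over 0.95. EGR1 was at 8.55 ± 0.169 CPM with PEG and HS against 32.1 ± 1.63 in E8 control, and PAPLN at 16.4 ± 0.267 and 43.4 ± 1.94.

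The rest of the pathway was read from lists by role. Of 9 receptors and coreceptors, 2 were called lower and 1 higher, and their median log2 fold change was -0.07. The type II receptor ACVR2B, at 11.8 ± 0.19 CPM per kilobase (SD, n = 3) in E8 control the most abundant of the type II receptors listed, was not called (log2 fold change -0.07, 95% interval -0.14 to 0.00), and nor were ACVR2A and the type I receptor TGFBR1. The 3 calls were small, with ACVR1B (-0.14) and the inhibin coreceptor TGFBR3, or betaglycan, (-0.25) lower and BMPR2 (0.13) higher on the log2 scale. Of 14 SMADs and regulators, 5 were called higher and 2 lower. SMAD7, the inhibitory SMAD that the pathway induces against itself, rose from 25.1, 25.4 and 23.6 CPM in E8 control to 39.6, 41.8 and 40.9 CPM with PEG and HS (log2 fold change 0.73, SE 0.046, edgeR adjusted p = 1.37e-08). SKIL, a SMAD corepressor that the pathway also induces, had a log2 fold change of 0.66 (SE 0.038, edgeR adjusted p = 4.72e-09). SMAD4, the shared partner SMAD, was lower (-0.30). The remaining calls of this list were PMEPA1 (0.33), BAMBI (0.29) and SMAD3 (0.15), which were higher, and FOXH1 (-0.13), which was lower.

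Of the 10 activin and Nodal response genes, 3 were called higher and 1 lower. LEFTY1, a feedback inhibitor of NODAL, was highest (log2 fold change 0.83), followed by GDF3 (0.41) and NODAL (0.38). CCN2, a matrix protein gene that TGF-beta induces in many cells, was at 12.5, 14.4 and 14.6 CPM with PEG and HS against 25.9, 28.9 and 21.8 CPM in E8 control. Its media did not overlap (log2 fold change -0.88, SE 0.091, edgeR adjusted p = 3.34e-06). The list thus moved in both directions, with a median of 0.27. Of the 7 convertases and tolloid proteases that process these ligands, 1 was called, TLL2, higher by 0.47 on the log2 scale, while FURIN was at 50.8 to 53.0 CPM with PEG and HS against 51.7 to 53.4 in E8 control. Of 5 related ligands, 4 were tested and TGFB1 was called lower (log2 fold change -0.29). GDF1 had 196, 0 and 0 counts with PEG and HS against 213, 106 and 219 in E8 control, shares 100% of its words with CERS1, with which it shares a transcript, and is uncertain for that reason.

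Of 13 other genes with a follistatin or Kazal-like domain, 7 were called lower and 2 higher, with a median log2 fold change of -0.33. SMOC2, a matricellular protein gene, was lowest, at 1.13, 1.20 and 0.768 CPM with PEG and HS against 3.22, 3.54 and 3.30 CPM in E8 control, which gave a log2 fold change of -1.71 (SE 0.19, edgeR adjusted p = 5.84e-06). SMOC1 (-1.02), TMEFF2 (-0.96), IGFBP7 (-0.62) and TMEFF1 (-0.60) were lower as well, as were AGRN and SPARC, while SPOCK3 (0.68) and SPOCK1 (0.26) were higher. FSTL4 and FSTL5, the other follistatin-like genes, were not called. Over the 6 lists together, 12 genes were called higher and 13 lower. These lists were written with results of this contrast known and are described beside the same background of 25.3%.

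**Figure D5:**
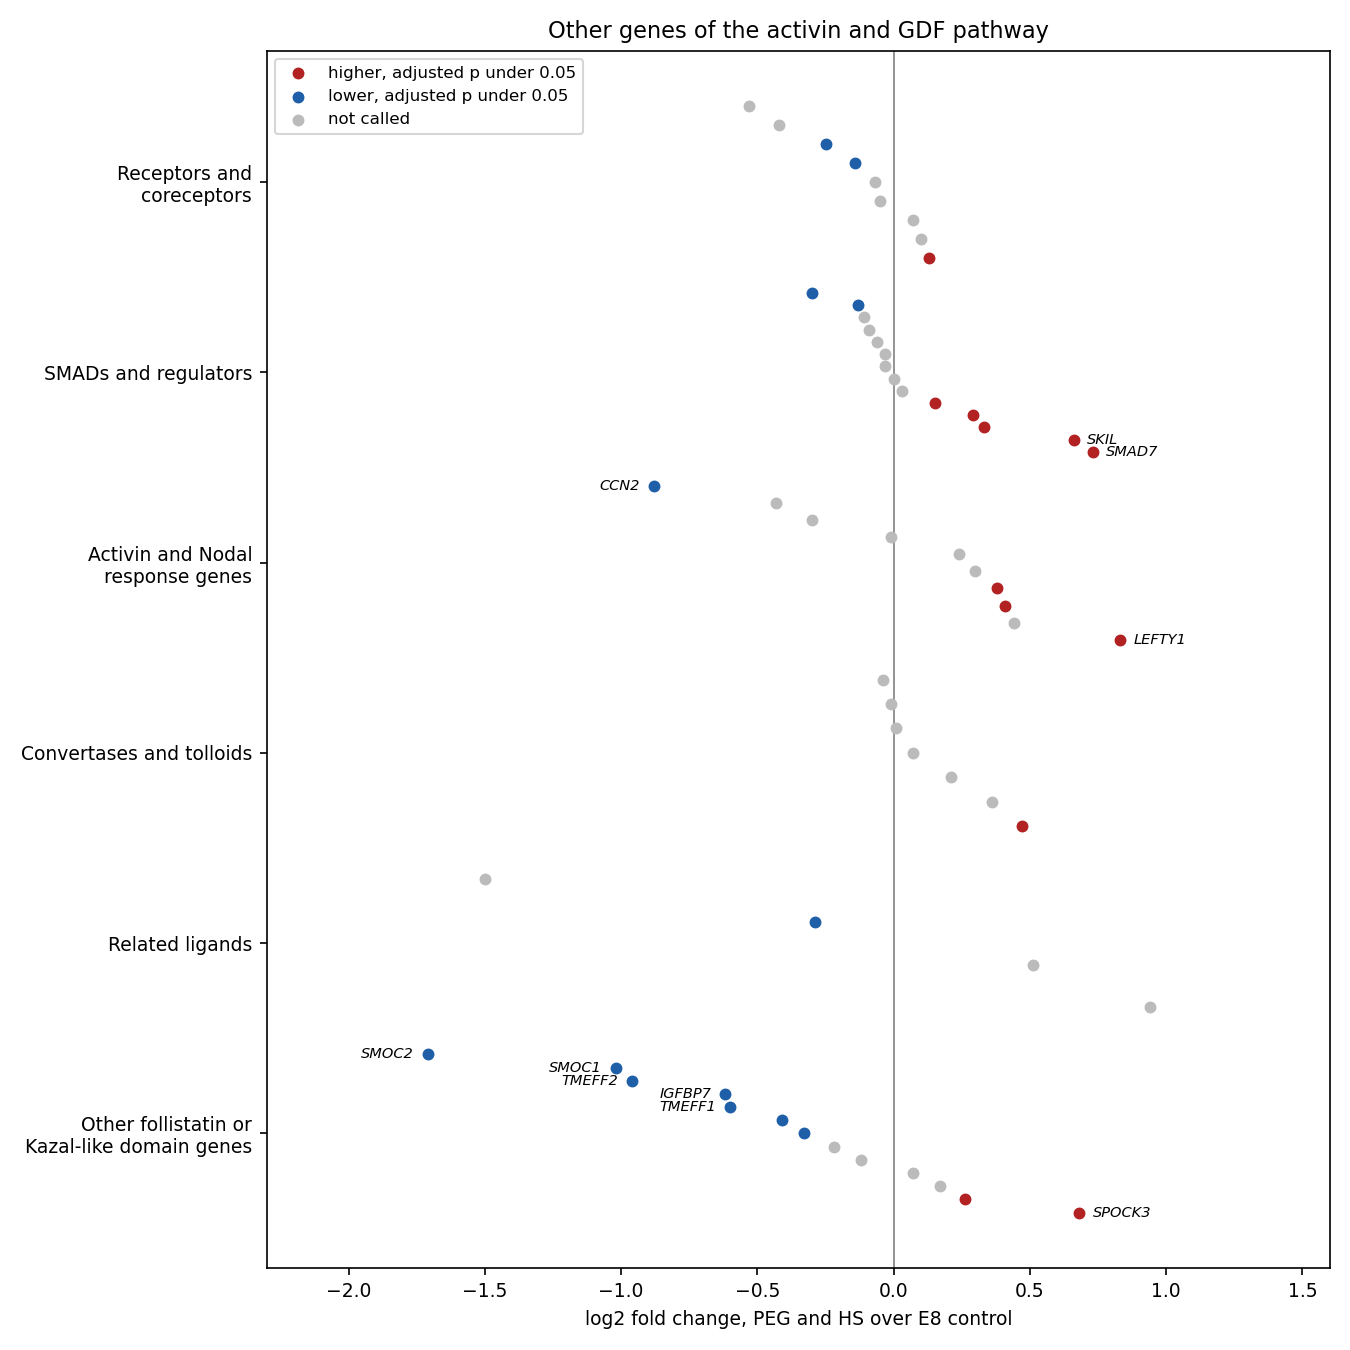
Log2 fold change of PEG and HS over E8 control (x axis) for the tested genes of the 6 lists by role, 1 point per gene, red for called higher, blue for called lower and grey for not called (edgeR adjusted p 0.05). Called genes past 0.5 in either direction are named. Among the called genes, LEFTY1 (0.83), SMAD7 (0.73), SPOCK3 (0.68) and SKIL (0.66) lie furthest right and SMOC2 (-1.71) furthest left.

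Markers of other cell types differed between the media to unlike extents, and the counts below stand beside 25.3% of all genes tested called (13.1% lower). Of 10 early neuroectoderm markers, 9 were called lower in PEG and HS, with a median log2 fold change of -1.47. Their summed level was 573 to 611 CPM with PEG and HS against 788 to 819 CPM in E8 control. Most of this sum was NES, at 543 and 643 CPM (log2 fold change -0.24), so it says little of the other markers. None of the 10 was at 0 in a library. Of 7 trophectoderm and amnion markers, 6 were tested and 4 were called lower, with sums of 5.34 to 5.58 and 14.7 to 15.8 CPM. Most of these sums came from KRT7, at 3.76 and 7.1 CPM, and TFAP2A, at 0.603 and 6 CPM. The sums thus say little of the other markers, and GATA3 and ISL1 were not called. CDX2, which defines trophectoderm, had 0 counts in 4 libraries. Of 8 primitive streak and mesoderm markers, 2 of the 6 tested were called lower, and MSGN1 was at 0 in each library. HAND1 is counted among the calls of this list and of the trophectoderm and amnion list. Its call rests on few counts, 1, 0 and 0 with PEG and HS against 6, 7 and 2 in E8 control. Of 6 endoderm markers, 0 of the 4 tested were called by edgeR, DESeq2 or limma-voom, with 1 at an unadjusted p under 0.05 in each, and SOX17 had 0 counts in 4 libraries. The part of these cell types in the levels of WFIKKN2, FST and the beta subunits was not tested.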

How the data were processed

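Reads were trimmed by the authors with Trim Galore 0.6.7, mapped to GRCh38 with STAR 2.6.1 inside an nf-core pipeline, and deposited as raw counts per gene, 1 file for each library. The counting tool, its use of strand and its handling of reads that map to several genes are not given in the sources used here. For each member with a gene over its exons on the opposite strand, whether reads of that gene bear on its counts is thus not known. The 6 libraries were grouped by their treatment label. Of 19977 Ensembl identifiers, 19916 matched GENCODE 44, which gave symbols, exon lengths and overlaps. Sequence windows came from RefSeq (GRCh38.p14). Of the 10 members, 9 had a window, and INHBE had none.

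Genes with at least 10 counts in all were scaled with TMM and tested with edgeR 4.0.16 (R 4.3.3, quasi-likelihood, no covariate), called at an adjusted p under 0.05. SE was computed as the size of the log2 fold change divided by the root of F, and intervals are 95%. CPM per kilobase divides by the union of exons. Alternatives were DESeq2 1.42.0, limma-voom (limma 3.58.1), other scalings and filters, a test against 1.5-fold, the replicate number as a block and each library left out. Named genes are all members, genes of the role lists called past 0.5 on the log2 scale, and the 5 genes most correlated with WFIKKN2. Called genes of the role lists under 0.5 were outside this rule and were added later as context. Others are marked as chosen later or given as context. The scripts were tested on simulated data with 200 genes changed 2-fold. There edgeR recovered 97% of them, and 8.06% of its calls were false, against 3.52% for DESeq2 and 5.39% for limma-voom. Floors and intervals cover counting error or the spread between these samples only. A further gene of the role lists is not reported here and is left out of their counts. The members and the lists were chosen with earlier results of these data known.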

Additional observations from a re-analysis of the deposited data

How the results depend on the processing

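Of the 9 members other than WFIKKN2, 8 were called, and 6 or 7 with each library left out in turn. Over all genes 4173 were called, and 3114 to 3674 with a library left out, and for the other pathway genes the count of 25 became 21 to 23. When differences had to exceed 1.5-fold, 264 genes, 1 member (FST) and 2 other pathway genes were called. DESeq2 called 3398 genes and 7 members, and limma-voom 4172 and 6. The labels number the replicates of both media alike. With the replicate number as a block 4444 genes, 7 members and 25 pathway genes were called, and same-numbered libraries did not deviate together (correlations 0.0052, 0.0137 and 0.00392), so the numbers were not taken as pairs. Under the block FSTL3 had an edgeR adjusted p of 0.0538.

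FSTL3 lost its call in 11 of 14 alternatives (DESeq2 adjusted p = 0.175, and 0.0355 to 0.178 over all but the 1.5-fold test) and INHBA in 6 of 14 (0.00475 to 0.160). The remaining called members kept their direction and their call in each alternative other than the 1.5-fold test, in which FST alone was called. INHA was called in none of the 12 alternatives that gave it an adjusted p. The E8 control level of WFIKKN2 was 1.61 CPM, and 1.45 to 1.73 CPM with one E8 control library left out. By longest transcript in place of the union of exons, 8 of 10 members kept their rank, and INHBA and INHBB changed places. Depth limits INHA, INHBA and INHBB, with 5 to 77 counts per library.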
